A study of Mus musculus with 7 samples.

Results

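The 37 genes described here act in DNA replication and S phase, the cell cycle phase in which the genome is copied. They were chosen by name from the 53715 genes listed in the table of expression values. No measured value entered the rule, but earlier results of these data were known when the genes were chosen. They encode the origin-loading and helicase proteins, the polymerases and other proteins of the replication fork, enzymes of nucleotide supply, and regulators of the step from G1 into S phase. Uhrf1, a gene of replication-linked methylation, is grouped with these regulators (G1/S control). RNA-seq was run on 4 libraries of fibroblasts taken at embryonic day 13.5 from OG2 mice (CBA-Tg(Pou5f1-EGFP)2Mnn/J), whose transgene couples EGFP to Pou5f1 sequences. All 4 came from cultures in Stage 1 medium of chemical reprogramming, which holds bFGF, vitamin C and the small molecules VPA, CHIR99021, 616452, Parnate, Forskolin, AM580 and EPZ004777; this stage is set at 12 days. For 2 of them the solvent DMSO was added, and for the other 2 R406, an inhibitor of the kinase Syk. The sources used here give neither the dose of R406 nor the day of RNA harvest. CUT&Tag, in which a transposase cuts the DNA around antibody-bound sites, was done on d4 with an antibody to FLAG, for 1 DMSO and 1 R406 library. Its OG2 fibroblasts carried lentiviral rtTA and TetO-Flag-Nfatc1 and were grown in Stage 1 medium with Dox, so the peaks are those of an introduced, tagged factor. A blank library without primary antibody was not analysed here.

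Before S phase, the origin recognition complex, CDC6 and CDT1 load a ring of the MCM2 to MCM7 proteins onto DNA, and geminin blocks CDT1 so that no origin is loaded again. At the start of S phase CDC45 and the GINS complex join the ring and make it an active helicase. PCNA, a sliding clamp, then holds the polymerases and their partners on the new strands. Most of these genes are transcribed in late G1 and S phase by E2F factors, once cyclin-dependent kinases have inactivated the RB family. In cultures of fibroblasts their RNA is a common measure of how many cells are dividing. In bulk RNA, however, fewer cells of a type and less RNA per cell cannot be told apart.

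The promoters of 4 of these genes, Mcm5, Uhrf1, Mcm6 and E2f2, are shown because their RNA rose with R406 (below, in the same order as their p-values) and because each holds a word that E2F factors can bind. Each line is 5′ to 3′ on the gene's strand, from 250 bases before to 50 after the start, from RefSeq on GRCm38.p6 (mm10), and capitals mark an E2F word on either strand. Uhrf1 and E2f2 each have 2 annotated starts, and the one with the word is shown.
Mcm5, chr8:75109259-75109558, + strand: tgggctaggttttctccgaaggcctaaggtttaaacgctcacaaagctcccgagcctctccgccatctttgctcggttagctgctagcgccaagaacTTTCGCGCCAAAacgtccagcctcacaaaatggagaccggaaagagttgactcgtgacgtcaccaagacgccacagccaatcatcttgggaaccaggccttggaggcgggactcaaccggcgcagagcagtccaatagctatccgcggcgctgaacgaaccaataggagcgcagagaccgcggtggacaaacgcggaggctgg
Uhrf1, chr17:56304063-56304362, + strand: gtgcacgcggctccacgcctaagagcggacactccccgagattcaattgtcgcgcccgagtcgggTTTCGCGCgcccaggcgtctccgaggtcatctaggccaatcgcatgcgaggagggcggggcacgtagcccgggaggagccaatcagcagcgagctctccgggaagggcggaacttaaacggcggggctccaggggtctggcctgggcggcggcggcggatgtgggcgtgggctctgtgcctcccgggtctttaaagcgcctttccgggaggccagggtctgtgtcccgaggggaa
Mcm6, chr1:128359656-128359955, - strand: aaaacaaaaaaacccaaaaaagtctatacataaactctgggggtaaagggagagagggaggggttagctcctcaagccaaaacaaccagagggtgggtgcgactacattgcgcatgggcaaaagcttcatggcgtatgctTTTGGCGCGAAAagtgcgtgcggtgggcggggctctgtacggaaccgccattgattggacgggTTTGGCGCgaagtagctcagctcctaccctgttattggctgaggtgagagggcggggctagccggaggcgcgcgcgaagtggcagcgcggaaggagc
E2f2, chr4:136172024-136172323, + strand: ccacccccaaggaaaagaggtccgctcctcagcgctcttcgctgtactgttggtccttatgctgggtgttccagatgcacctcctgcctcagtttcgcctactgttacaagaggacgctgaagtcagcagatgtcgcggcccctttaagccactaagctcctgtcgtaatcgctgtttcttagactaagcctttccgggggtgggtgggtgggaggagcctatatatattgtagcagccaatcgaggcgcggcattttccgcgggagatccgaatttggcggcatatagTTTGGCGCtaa
The words searched were TTTCCCGC, TTTGGCGC, TTTCGCGC and TTTGCCGC, on both strands. In the Mcm5 promoter TTTCGCGC, at position -153 from the start, overlapped TTTGGCGC on the opposite strand, which forms one run of capitals. In the Mcm6 promoter TTTGGCGC at position -110 overlapped TTTCGCGC on the opposite strand in the same way, and a separate TTTGGCGC stood at -47.

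Such words were common in the set. Of the 37 genes, 31 had a promoter in the RefSeq table, and 15 of these (48.4%) held an E2F word, against 4.65% of 9924 tested genes and 2.60% of all 27025 genes with a promoter there. Besides the promoters shown, E2F words stood at Orc1, Cdc6, Cdt1, Mcm3, Mcm7, Gins3, Pola1, Pold1, Rfc3, Lig1 and Cdk2, and 5 of the 15 genes held more than 1. The CCAAT word, bound by NF-Y, was present in 64.5% of the members' promoters and in 42.9% of those of tested genes (41.1% of all). The word TTTGAA, known as the CHR element of late cell cycle genes, stood in 16.1% against 14.0% (20.2% of all). The NFAT word TGGAAA stood in 22.6% against 19.1% (23.9% of all). A match is a description of the letters and not a binding site. Of the 8 members with a promoter whose RNA rose in the test below, 4 held an E2F word, and of the other 23 members 11 did.

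**Figure D1:**
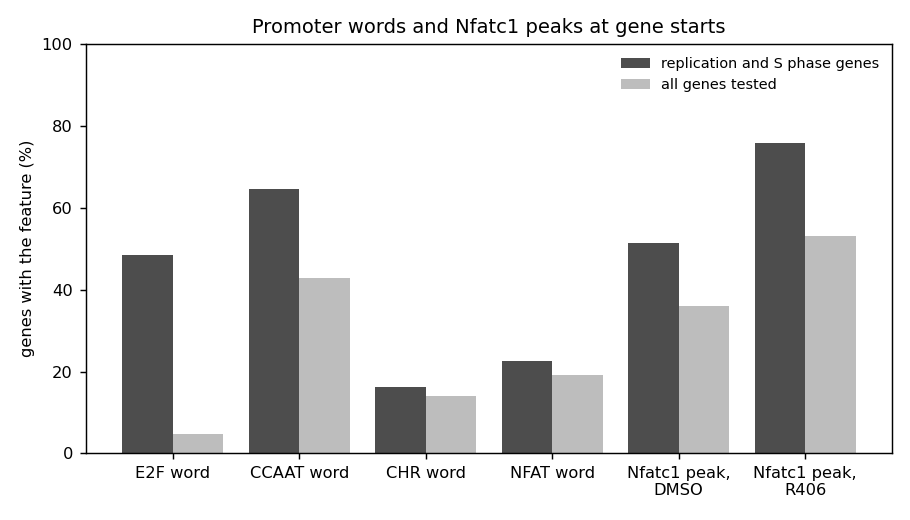
Share of genes (%) with each promoter word within 250 bases before to 50 after the start, and with a deposited Nfatc1 peak within 1000 bases of the start, for the replication and S phase genes (dark bars) and all tested genes with an entry (light bars). The E2F words differed most between the 2 kinds of bar, at 48.4% and 4.65%.

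Expression was given in TPM, a share of a fixed total per length of transcript that keeps no read depth; read numbers per gene are therefore unknown. A total of 13537 to 14045 genes reached 1 TPM in each library. The share of TPM in ribosomal protein genes was 15.9% and 17.7% with DMSO and 21.8% and 25.2% with R406. Of 13 fibroblast markers, all were expressed highly enough to test, with a summed level of 3885 to 4808 TPM in DMSO and 4376 to 6096 TPM in R406. In the test described below, 2 of them rose (Postn and Col3a1) and 1 fell (Fn1), while 5 differences were above 0 and 8 below. The labels do not say whether the 2 libraries of a group were grown separately. The p-values thus rest on the spread between these libraries only, which may be technical.

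Replication and S phase genes were, for the most part, higher with R406. Of the 37 genes, 9 rose and 0 fell over all genes tested (limma on log2(TPM + 1), Benjamini-Hochberg adjusted p below 0.05). Among all 13929 tested genes 4.26% rose and 4.05% fell. The median difference of the 37 genes was 1.02 on the log2(TPM + 1) scale, against -0.02 for all genes tested, and 34 of the 37 differences were above 0, as were 48.8% of all. At an unadjusted p below 0.05, 28 were higher and 1 was lower, against 12.3% and 14.5% of all genes. Both R406 libraries stood above both DMSO libraries in 33 genes, as in 25.9% of all genes, while 2 genes (E2f1 and Fen1) lay wholly below, as in 30.2%. In the remaining 2, Rrm2 and Ccne1, the groups overlapped. The summed level of the 37 genes was 342 and 347 TPM with DMSO and 662 and 514 TPM with R406.

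The calls depended on single libraries. None of the 9 genes kept its call in every leave-out: without DMSO replicate 1 there were 0 calls (21 higher at an unadjusted limma p below 0.05), without DMSO replicate 2 there were 2, without R406 replicate 1 there were 5, and without R406 replicate 2 there were 20. The share of all tested genes that rose in these 4 fits moved as well, to 1.14%, 2.75%, 3.75% and 6.56%. All 9 stayed past the threshold under each other scaling and pseudocount tried, and the calls then numbered 9 to 18 higher; with no filter on low values 0 of all 27879 genes passed, and 28 of the 37 were higher at an unadjusted p below 0.05.

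**Figure D2:**
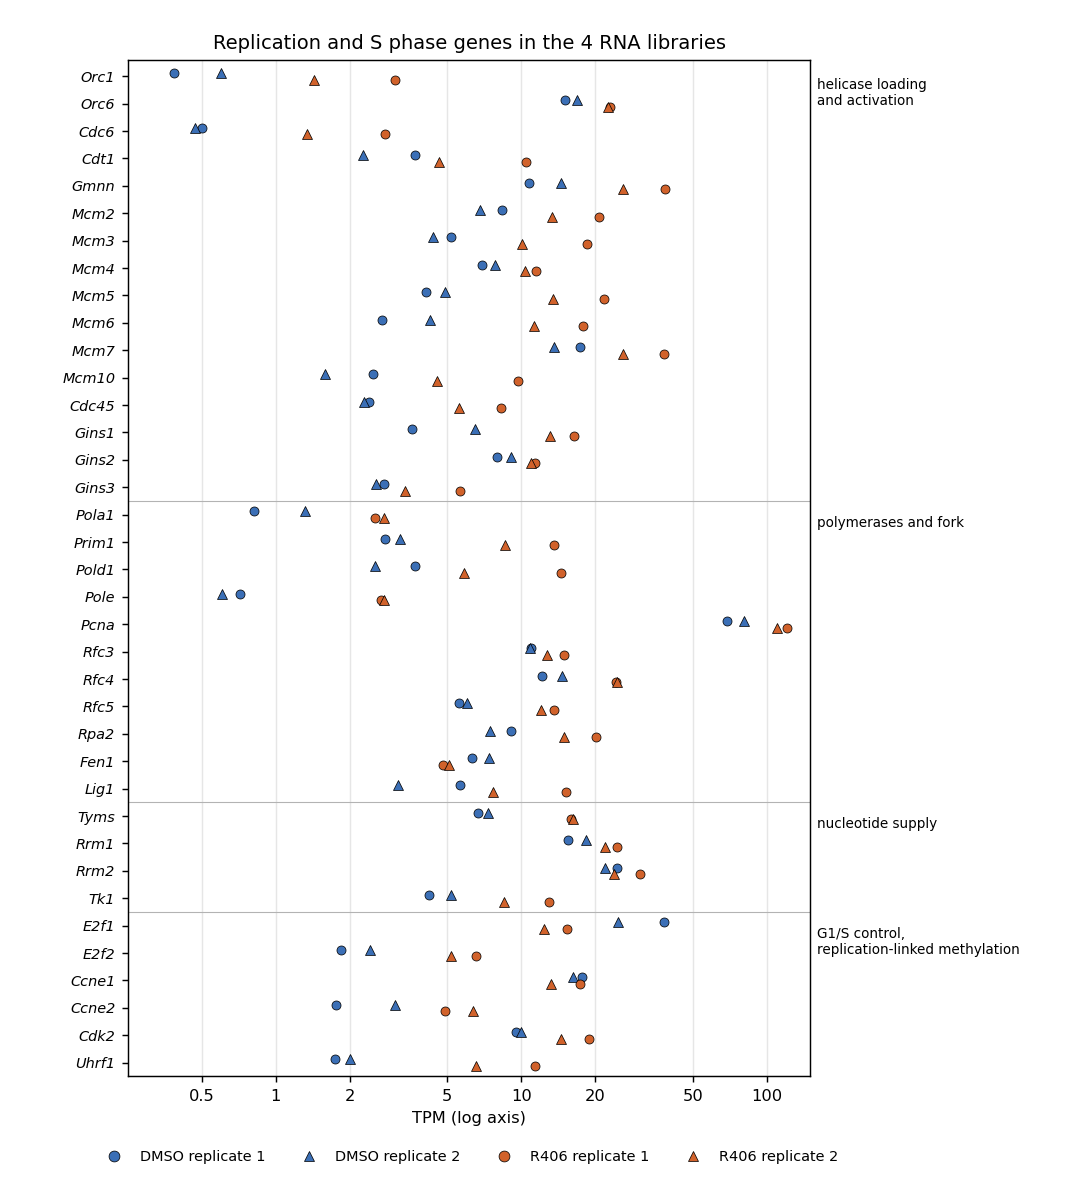
Level of each of the 37 genes in TPM (log axis) in the 4 RNA libraries, by role; circles are replicate 1 and triangles replicate 2 of DMSO (blue) and R406 (orange). The R406 points lie right of the DMSO points in 33 genes, left of them in E2f1 and Fen1, and mixed with them in Rrm2 and Ccne1.

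In all 16 genes of helicase loading and activation the R406 libraries lay above the DMSO libraries, and 3 of them passed the test. Mcm5, a subunit of the helicase ring, measured 4.08 and 4.87 TPM with DMSO and 21.6 and 13.5 TPM with R406, a difference of 1.73 ± 0.28 (SE) on the log2(TPM + 1) scale with a limma adjusted p of 0.0330. Mcm6, another subunit of the ring, measured 2.71 and 4.26 TPM with DMSO and 17.8 and 11.3 TPM with R406 (1.79 ± 0.31, adjusted p = 0.0374). Of all 37 genes, Mcm6 had the largest difference on this scale. Its ratio of mean TPM, 4.18, was exceeded by those of Uhrf1 (4.77), Orc1 (4.58) and Cdc6 (4.26). Cdc45, the protein that joins the ring when origins fire, measured 2.40 and 2.29 TPM with DMSO and 8.26 and 5.58 TPM with R406 (1.22 ± 0.24, adjusted p = 0.0479). In each of these 3 genes the groups were apart and R406 replicate 1 was the highest library.

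The other 4 subunits of the ring differed in the same direction without passing the test. Mcm2 measured 8.36 and 6.80 TPM with DMSO and 20.7 and 13.4 TPM with R406 (limma adjusted p = 0.0865). Mcm3 measured 5.17 and 4.36 TPM against 18.5 and 10.1 TPM (adjusted p = 0.0711). Mcm7 was the most abundant of the ring in all 4 libraries, at 17.3 and 13.5 TPM against 38.0 and 26.0 TPM (adjusted p = 0.0897). The Mcm7 gene hosts the microRNAs Mir25, Mir93 and Mir106b, which the table of genes lists separately. Mcm4 differed least among the 6, at 6.91 and 7.81 TPM against 11.5 and 10.3 TPM, a log2 difference of 0.51 with an adjusted p of 0.171. The 6 subunits, which form the ring in equal numbers, summed to 44.5 and 41.6 TPM with DMSO and 128 and 84.6 TPM with R406. Within a library, the highest subunit exceeded the lowest by 6.37 and 3.17 times with DMSO and by 3.30 and 2.58 times with R406.

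Origin-binding and loading genes were among the lowest of the set. Orc1, the ATPase subunit of the origin recognition complex, measured 0.384 and 0.596 TPM with DMSO and 3.06 and 1.43 TPM with R406 (limma adjusted p = 0.101). Cdc6, which loads the ring together with it, measured 0.499 and 0.468 TPM against 2.79 and 1.34 TPM (adjusted p = 0.103). The groups were apart in both genes, and R406 replicate 1 was 2.14 times R406 replicate 2 for Orc1 and 2.09 times for Cdc6. Orc6, by contrast, stood at 15.1 and 16.9 TPM with DMSO and 22.9 and 22.5 TPM with R406 (log2 difference 0.48, adjusted p = 0.177). Orc1 and Cdc6, with Pole, had a DMSO mean below 1 TPM and entered the test only through their R406 values; of the other 34 genes 8 rose.

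Cdt1, the loader that geminin inhibits, measured 3.69 and 2.26 TPM with DMSO and 10.5 and 4.64 TPM with R406, with a limma adjusted p of 0.190. Gmnn, which encodes geminin, measured 10.8 and 14.5 TPM against 38.6 and 25.9 TPM (log2 difference 1.27, adjusted p = 0.0607). The ratio of Gmnn to Cdt1 was 2.92 and 6.43 with DMSO and 3.68 and 5.58 with R406, so the libraries of the 2 groups were mixed in it. Mcm10, which helps the helicase to start, measured 2.49 and 1.58 TPM against 9.72 and 4.55 TPM (adjusted p = 0.0981).

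The 3 GINS genes in the set differed by unequal amounts. Gins1 measured 3.58 and 6.47 TPM with DMSO and 16.3 and 13.0 TPM with R406 (log2 difference 1.42, limma adjusted p = 0.0577). Gins2 measured 7.99 and 9.11 TPM against 11.3 and 11.0 TPM (0.35, adjusted p = 0.304), and Gins3 2.75 and 2.57 TPM against 5.61 and 3.37 TPM (0.55, adjusted p = 0.262). Their proteins form one complex, and whether their differences are unequal was not tested.

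At the fork, 3 of 11 genes rose and 10 lay wholly higher with R406. Pole, the catalytic subunit of the leading-strand polymerase, had the smallest p of all 37 genes, at 0.713 and 0.602 TPM with DMSO and 2.68 and 2.75 TPM with R406 (log2 difference 1.17 ± 0.18 SE, limma adjusted p = 0.0309). As stated above, Pole entered the test only through its R406 values. Prim1, the primase that lays down RNA primers, measured 2.79 and 3.22 TPM against 13.6 and 8.60 TPM (1.57 ± 0.27, adjusted p = 0.0370). Rfc5, a subunit of the clamp loader, measured 5.57 and 6.01 TPM against 13.6 and 12.0 TPM (1.02 ± 0.19, adjusted p = 0.0417). The 2 R406 libraries nearly coincided in Pole and lay close in Rfc5, while in Prim1 replicate 1 stood well above replicate 2.

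Of the other polymerase genes, Pola1, which extends the primers, measured 0.812 and 1.31 TPM with DMSO and 2.53 and 2.75 TPM with R406 (limma adjusted p = 0.0844). Pold1, the catalytic subunit of the lagging-strand polymerase, measured 3.69 and 2.54 TPM against 14.5 and 5.82 TPM, and its adjusted p of 0.135 went with the widest gap between the R406 libraries in the set, 2.50 times. Rfc4, of the clamp loader, measured 12.1 and 14.7 TPM against 24.2 and 24.6 TPM (adjusted p = 0.0696), and its span overlaps that of Eif4a2. Rfc3, of the same complex, measured 11.0 and 10.8 TPM against 14.9 and 12.8 TPM (adjusted p = 0.359). Rpa2, a subunit of the protein that coats single-stranded DNA, measured 9.04 and 7.46 TPM against 20.2 and 15.0 TPM (adjusted p = 0.0691).

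Pcna was the most abundant of the 37 genes in every library, at 68.9 and 80.7 TPM with DMSO and 121 and 110 TPM with R406. Its groups were apart, with a log2 difference of 0.62 and a limma adjusted p of 0.118. It made up 20.1% and 23.2% of the summed level of the 37 genes with DMSO and 18.2% and 21.5% with R406. The enzymes that finish the lagging strand lay on opposite sides. Lig1, the ligase that seals it, measured 5.61 and 3.16 TPM with DMSO and 15.2 and 7.67 TPM with R406 (log2 difference 1.18, adjusted p = 0.145). Fen1, the nuclease that trims the flaps before sealing, measured 6.27 and 7.35 TPM against 4.77 and 5.08 TPM (-0.40, 95% interval -0.89 to 0.10, adjusted p = 0.269). The ratio of Fen1 to Lig1 was 1.12 and 2.33 with DMSO and 0.314 and 0.662 with R406, so its groups were apart too. The span of Fen1 overlaps that of Tmem258, and libraries that do not mark strand cannot separate reads of overlapping exons.

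**Figure D3:**
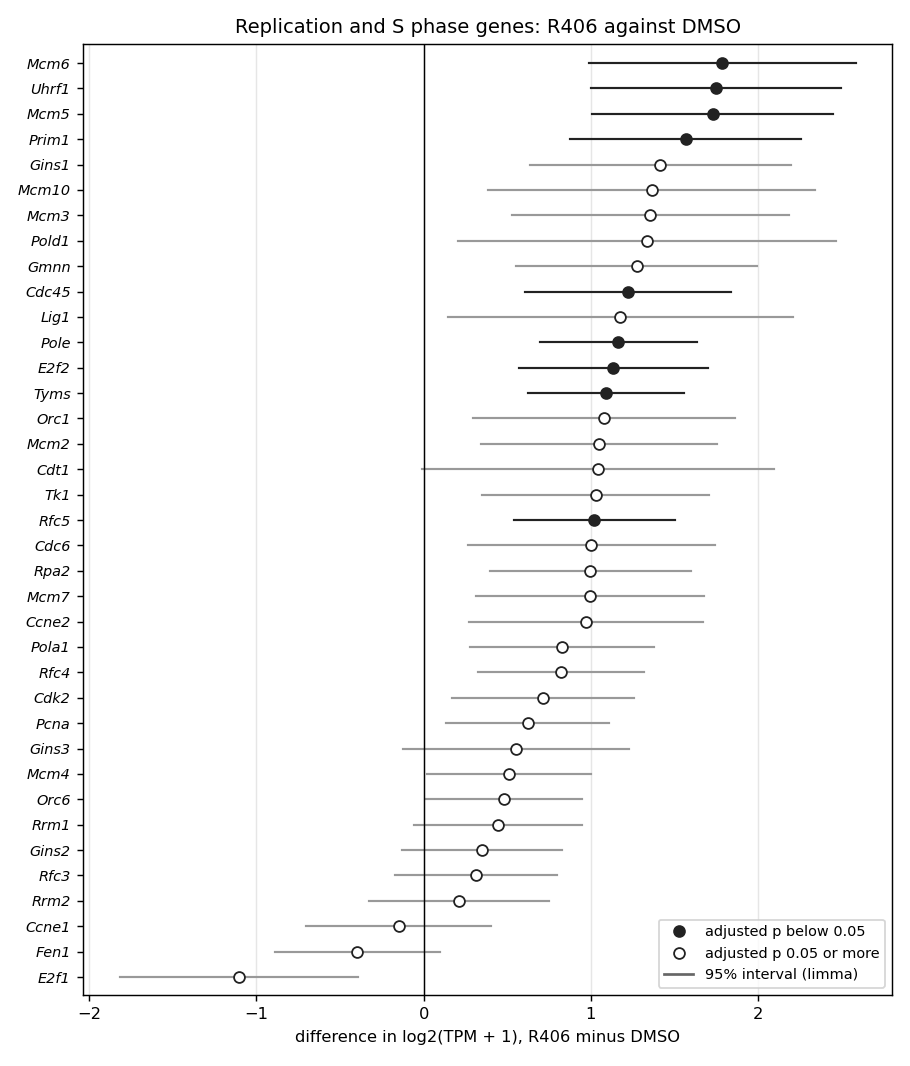
Difference in log2(TPM + 1) between R406 and DMSO for each of the 37 genes, ordered by size, with limma's 95% interval; filled points had an adjusted p below 0.05. The points run from -1.10 (E2f1) to 1.79 (Mcm6), and 34 of 37 lie above 0.

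Among 4 genes of nucleotide supply, 1 rose. Tyms, which makes thymidylate, measured 6.68 and 7.31 TPM with DMSO and 15.9 and 16.2 TPM with R406 (log2 difference 1.09 ± 0.18 SE, limma adjusted p = 0.0342), with little spread in either group. Tk1, the thymidine kinase of dividing cells, measured 4.20 and 5.15 TPM against 13.0 and 8.49 TPM (adjusted p = 0.0838). Both subunits of ribonucleotide reductase, which makes deoxynucleotides, differed less. Rrm1 measured 15.4 and 18.3 TPM against 24.6 and 21.9 TPM (log2 difference 0.44, adjusted p = 0.232). Rrm2 measured 24.4 and 21.9 TPM against 30.4 and 24.0 TPM, overlapping between the groups (0.21, 95% interval -0.32 to 0.75, adjusted p = 0.578).

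The 6 genes of G1/S control and replication-linked methylation were the most divided group. Uhrf1, which guides the copying of DNA methylation behind the fork, rose from 1.75 and 2.01 TPM with DMSO to 11.3 and 6.56 TPM with R406 (log2 difference 1.75 ± 0.29 SE, limma adjusted p = 0.0346). E2f2, an activating E2F factor, rose from 1.84 and 2.41 TPM to 6.56 and 5.17 TPM (1.13 ± 0.22, adjusted p = 0.0473). E2f1, another activating E2F, lay in the opposite direction, at 38.1 and 24.7 TPM with DMSO and 15.4 and 12.3 TPM with R406, a log2 difference of -1.10 ± 0.28 with an adjusted p of 0.0791. It was the lowest difference of the 37 and the 1 gene lower at an unadjusted p below 0.05. Among the other scalings, E2f1 passed the threshold with median centring (adjusted p = 0.0387), quantile normalization (0.0350) or removal of mitochondrial and ribosomal protein genes (0.0467), but in no leave-out (0.0705 to 0.341). The ratio of E2f1 to E2f2 was 20.7 and 10.3 with DMSO and 2.34 and 2.39 with R406. The span of E2f1 overlaps that of Necab3. Of the 37 genes, 15 overlap another annotated gene, among them E2f1, Fen1 and the risers Cdc45 and Pole. The part of such overlap in these differences was not tested.

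The cyclins E, which activate CDK2 at the start of S phase, were likewise split. Ccne1 measured 17.7 and 16.2 TPM with DMSO and 17.4 and 13.2 TPM with R406, overlapping between the groups (log2 difference -0.15, 95% interval -0.70 to 0.40, limma adjusted p = 0.714). Ccne2 measured 1.76 and 3.06 TPM against 4.88 and 6.33 TPM (0.97, adjusted p = 0.0998), so the ratio of Ccne1 to Ccne2 was 10.0 and 5.30 with DMSO and 3.57 and 2.09 with R406. Cdk2, their kinase partner, measured 9.51 and 9.96 TPM against 18.9 and 14.6 TPM (0.71, adjusted p = 0.110).

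The R406 libraries were not alike in these genes. Replicate 1 was above replicate 2 in 31 of the 37 genes, with a median gap of 0.37 in log2(TPM + 1), against 0.21 over all genes tested. The DMSO libraries were closer, with replicate 1 higher in 16 genes and a median gap of -0.11 (all genes 0.09). Markers of other cell types moved with the treatment as well. Of 18 markers of extraembryonic endoderm 16 were tested and 9 rose. All 18 summed to 2856 and 2162 TPM with DMSO and 4844 and 2830 TPM with R406, so the groups overlapped in the sum. Most of it was Sparc, which did not pass the test, at 2641 and 1970 TPM against 3291 and 2028 TPM. Of 17 epithelial markers 15 were tested, of which 11 rose and 1 fell. All 17 summed to 265 and 247 TPM with DMSO and 1294 and 741 TPM with R406. R406 replicate 1 was the higher there too. Of 14 macrophage markers 10 were tested and 9 fell. All 14 summed to 293 and 247 TPM with DMSO and 22.5 and 24.7 TPM with R406. Most of the DMSO sum was Lyz2, at 207 and 179 TPM against 3.86 and 3.33 TPM. Cd14, tested without a call, measured 14.8 and 9.04 TPM against 14.2 and 15.4 TPM and made up most of the R406 sum. Aif1, too low to test, overlapped between the groups (0.212 and 0.472 TPM against 0.157 and 0.771 TPM). The pan-leukocyte marker Ptprc, near 0 already with DMSO (0.0829 and 0.142 TPM), was listed at 0 in both R406 libraries. The risers Cubn, Apoa1 and Esrp1 had a DMSO mean below 1 TPM and entered the test only through their R406 values. Hnf4a, without a call, entered in the same way. Tyrobp, Fcer1g, C1qa, C1qb, C1qc, Csf1r and Fcgr3, which fell, had an R406 mean below 1 TPM and entered only through their DMSO values. Lyz2 and Cd68, which also fell, had an R406 mean above 1 TPM. The part of these other cell types in the replication gene differences was not tested.

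Related lists chosen by function moved by different amounts. Of 43 other replication genes, 40 were tested, of which 3 rose and 0 fell, with a median of 0.55. The risers were Rpa3, a partner of Rpa2 (52.3 and 63.8 TPM with DMSO, 154 and 148 TPM with R406, limma adjusted p = 0.0264), the topoisomerase gene Top2a (log2 difference 1.78, adjusted p = 0.0377) and the histone chaperone gene Asf1b (1.40, adjusted p = 0.0391). Of 17 tested genes of S phase repair and checkpoint, 5 rose and 0 fell (median 0.79). Among them were Xrcc2, the uracil glycosylase gene Ung and the nuclease gene Exo1, with limma adjusted p of 0.0389, 0.0479 and 0.0480. Exo1, at 0.295 and 0.374 TPM with DMSO and 2.28 and 1.53 TPM with R406, entered the test only through its R406 values, as did Kif11 among the mitosis genes. Genes without a call entered in the same way. These were Recql4, Dna2, Wdhd1 and Clspn in other replication, Brca1, Fanca, Palb2 and Chek1 in repair, and Mki67, Ttk and Foxm1 in mitosis. All of them count in the list medians. Mitosis genes, which follow in the cell cycle, had 13 rises and 0 falls among 26 tested (median 1.37), and Cdc20 and Plk1 had the smallest p among them. Whether the mitosis and replication lists differ from each other was not tested. Without DMSO replicate 1 the risers numbered 0 in all 3 of these lists. The repair list had 0 without DMSO replicate 2 and 1 without R406 replicate 1, while 8 repair and 8 other replication genes passed without R406 replicate 2.

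**Figure D4:**
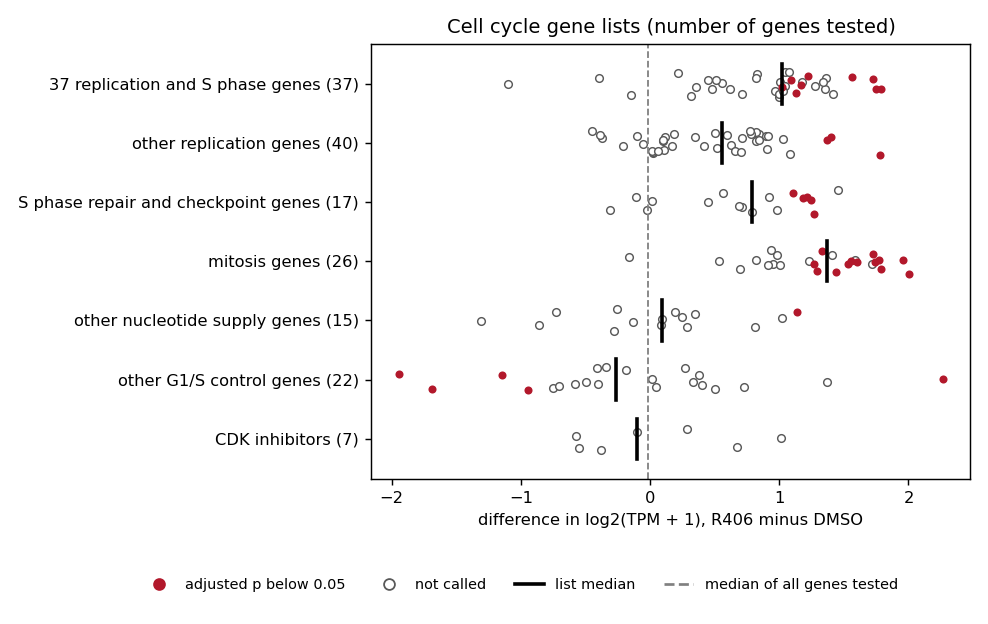
Difference in log2(TPM + 1) between R406 and DMSO for the tested genes of 7 lists; filled points had an adjusted p below 0.05, black bars are list medians and the dashed line is the median of all genes tested. Medians run from -0.26 in the other G1/S control genes to 1.37 in the mitosis genes, and the 37 genes have a median of 1.02.

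Upstream regulators of S phase entry were mixed in direction. Of 22 other G1/S control genes tested, 1 rose and 4 fell, while 10 differences were above 0 and 12 below (median -0.26). Rbl1, without a call, counts in these numbers but entered the test only through its R406 values. It measured 0.819 and 0.711 TPM with DMSO and 1.19 and 1.84 TPM with R406. Ccnd1, the cyclin D that responds to growth factors, fell from 227 and 196 TPM with DMSO to 58.8 and 49.5 TPM with R406 (log2 difference -1.95, limma adjusted p = 0.0165). Ccnd2 fell from 127 and 136 TPM to 69.4 and 66.5 TPM (-0.94, adjusted p = 0.0430). Cdk6, a kinase partner of the D cyclins, fell from 3.90 and 3.98 TPM to 1.19 and 1.27 TPM (-1.15, adjusted p = 0.0311), and E2f8, a repressing E2F, from 10.2 and 9.99 TPM to 2.73 and 2.19 TPM (-1.69, adjusted p = 0.0184). The 1 riser was Mybl2, a transcription factor of the S and G2 phases, from 2.25 and 3.05 TPM to 23.1 and 11.7 TPM (2.27, adjusted p = 0.0315). Ccna2 had the largest difference of the list without a call. It lay higher with R406, at 2.33 and 4.10 TPM against 10.4 and 8.91 TPM (1.37, limma adjusted p = 0.0504). These falls numbered 0 without DMSO replicate 1 and 2 without DMSO replicate 2 or without R406 replicate 1.

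Of 15 other genes of nucleotide supply, 1 rose and 0 fell (median 0.09). That 1 call was lost in each of the 4 leave-outs. Dut, which clears dUTP, lay lower with R406, at 190 and 133 TPM against 73.2 and 55.2 TPM (log2 difference -1.31, limma adjusted p = 0.0532). Rrm2b, the reductase subunit induced by p53, lay lower too, at 3.27 and 4.84 TPM against 1.67 and 1.83 TPM (adjusted p = 0.0923).

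None of the 7 CDK inhibitor genes passed limma's threshold, while 2 were higher and 1 lower at an unadjusted p below 0.05. Cdkn1a, which encodes p21, was high throughout, at 994 and 852 TPM with DMSO and 666 and 592 TPM with R406 (log2 difference -0.55, adjusted p = 0.163). Cdkn2a measured 703 and 569 TPM against 530 and 444 TPM, and Cdkn2b 227 and 159 TPM against 155 and 104 TPM (adjusted p of 0.335 and 0.300). Cdkn1b, which encodes p27, measured 4.66 and 8.24 TPM against 10.5 and 17.5 TPM, and Cdkn2c 8.84 and 9.26 TPM against 16.9 and 13.3 TPM (adjusted p of 0.161 and 0.118). Cdkn1c overlapped between the groups (91.8 and 62.8 TPM against 121 and 71.5 TPM), and Cdkn2d stood at 34.9 and 32.4 TPM against 31.8 and 30.9 TPM, with adjusted p of 0.653 and 0.770.

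The CUT&Tag lists placed tagged Nfatc1 at the start of many of these genes. With DMSO, 19 of 37 (51.4%) had a deposited peak within 1000 bases of the start, against 36.1% of 13306 tested genes, and with R406 28 of 37 (75.7%) against 53.2%. For Mcm4, Gmnn, Gins1, Gins2, Pole and Ccne2, which had no promoter entry, either end of the gene was used. The R406 list was the longer, with 36885 peaks against 21246, and 1 library per condition allows no test of a change. Peaks stood at 18 genes in both lists, at 1 gene (Ccne2) in the DMSO list alone and at 10 genes in the R406 list alone (Ccne1, Cdc6, Fen1, Lig1, Mcm3, Mcm5, Rfc3, Rfc4, Tyms and Uhrf1). The 8 genes with none were Gins3, Gmnn, Mcm10, Mcm2, Pola1, Prim1, Rfc5 and Rrm1.

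The strongest peak by the authors' fold enrichment was at Rpa2 in both lists (37.9 with DMSO and 48.7 with R406), followed by Pcna in the DMSO list (37.2) and by Cdt1 (44.9), Orc6 (43.6) and Pcna (42.4) in the R406 list, none of which passed the RNA test. Of the 9 genes whose RNA rose, 4 had a DMSO peak and 7 an R406 peak, against 15 and 21 of the other 28. The promoter of Mcm5 shown above lies within an R406 peak at chr8:75109071-75109732 (authors' fold 12.7), and that of Uhrf1 within an R406 peak at chr17:56303933-56304465 (5.40). The Mcm6 promoter overlaps a DMSO peak at chr1:128359406-128359791 (5.83), while the R406 peak at chr1:128359176-128359614 (6.33) ends just downstream of the printed window. At E2f2 both peaks lie near a second annotated start and not at the promoter shown. E2f1, whose RNA lay lower with R406, had a peak upstream of its start in both lists (authors' fold 7.29 with DMSO and 10.1 with R406).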

How the data were processed

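The authors deposited TPM per gene for 4 RNA libraries, as a table and as 4 single files with equal values. Per the labels' protocols, libraries were made with an NEBNext Ultra kit. Per the submitters' processing notes, the tools were HISAT2 2.1.0 and StringTie 2.0 on mm10. Which tool did what, the annotation and the treatment of shared reads are not stated there. For CUT&Tag the authors deposited 1 peak list per library, with a score, a fold enrichment, a −log10 p-value and a −log10 q-value per peak, and the notes name Bowtie2 2.2.5 and MACS2 2.1.2. They state neither the calling threshold nor the use of the blank.

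Gene IDs were matched to symbols for 53620 of 53715 genes. The test took the 13929 genes whose mean reached 1 TPM. Limma 3.58.1 (R 4.3.3) fitted log2(TPM + 1) to the 2 groups, with a prior variance that follows the mean, and two-sided p-values were adjusted by Benjamini and Hochberg over all of these genes, at a threshold of 0.05. A log2 difference on this scale understates the change of low genes. The script was tested on simulated data. Replicate numbers were left out of the fit, since the labels tie them to no shared culture. The 37 genes and the other lists were chosen with earlier results of these data known, so no test over a list was made. All 37 genes are named, other lists by the smallest p (some genes of these lists are not reported here), and promoters were printed for called genes that hold an E2F word. Peaks were joined to starts in RefSeq (GRCm38.p6) within 1000 bases. Other pseudocounts, filters, scalings, windows, a replicate block and leave-outs were tried.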

Additional observations from a re-analysis of the deposited data

How the results depend on the processing

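The 9 rises among the 37 genes were counted again under each alternative. They were 9 with a pseudocount of 0.1 or 0.5 or without the trend, 6 of 28 tested genes where the mean had to reach 5 TPM, 16 with quantile normalization, 18 with median centring, 15 without mitochondrial and ribosomal protein genes and 0 with no filter on low values. Over all genes 6.3%, 6.7% and 6.52% rose with quantile normalization, median centring and that removal. Falls numbered 1 (E2f1) with quantile normalization, median centring or removal of those genes. Leaving out 1 library gave 0 to 20 rises and 0 falls.

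By role, quantile normalization, median centring and removal of mitochondrial and ribosomal protein genes gave 8, 10 and 8 rises in helicase genes, the first 2 of these gave 2 in nucleotide supply, and all 3 gave 1 fall in G1/S control. The 5 TPM minimum left 1 rise in G1/S control. Leave-outs gave 0 to 12 rises in helicase genes, 0 to 5 at the fork, 0 to 1 in nucleotide supply and 0 to 2 in G1/S control.

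In the related lists, quantile normalization and median centring gave 5 and 5 rises in other replication genes, 2 and 2 in other G1/S genes, and 2 rises and 1 fall in other nucleotide genes. Quantile normalization gave 21 rises in mitosis genes. Removal of mitochondrial and ribosomal protein genes gave 9 rises in repair genes, 2 in other G1/S genes, and 2 rises and 1 fall in other nucleotide genes. The 5 TPM minimum gave 5 rises in mitosis genes and 0 in repair and other nucleotide genes. A pseudocount of 0.1 gave 0 rises in other nucleotide genes, and omission of the trend gave 2 in other G1/S genes. With no filter, rises and falls were 0 in every list. Leave-outs gave 0 to 8 rises in other replication genes, 0 to 8 in repair, 0 to 18 in mitosis, 0 to 2 rises and 0 to 3 falls in other G1/S genes, and 0 rises and 0 to 1 falls in other nucleotide genes.

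A replicate block, with the replicate number as a term, gave 28 rises and 1 fall among the 37 genes: 13 helicase, 9 fork, 2 nucleotide supply and 4 G1/S rises, and 1 G1/S fall (E2f1, limma adjusted p = 0.00783). Calls increased over all 13929 genes too, to 15.3% higher and 18.2% lower. It gave 17 rises and 2 falls in other replication genes, 8 rises in repair, 23 in mitosis, 3 rises and 7 falls in other G1/S genes, 3 and 3 in other nucleotide genes, and 2 and 3 among CDK inhibitors. Over the 13929 genes the difference of replicate 1 and 2 in DMSO correlated with that in R406 (Pearson's r = 0.556 across genes, which are not independent). With 2 libraries a group this does not show that the numbers mark shared cultures.

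The direction changed in 1 gene: leaving out 1 library gave Ccne1 log2 differences of -0.334 to 0.037, the only one above 0 being that without R406 replicate 2 (limma adjusted p = 0.954). Only peaks with a −log10 q-value of at least 10 left 12 genes with a DMSO peak and 21 with an R406 peak (21.4% and 43.5% of all genes). Windows of 500 and 5000 bases gave 17 and 20 with DMSO (34.2% and 42.1% of all genes) and 27 and 29 with R406 (50.3% and 60.8%). Except where a value shows it, the cause of these changes was not tested. TPM keeps no read depth, so counting error is unknown.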
